A study of Rattus norvegicus with 6 samples.

Results

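Superoxide dismutases, catalase and the enzymes beside them form a short chain that disposes of superoxide. The 8 genes described here are the dismutases Sod1, Sod2 and Sod3, the copper chaperone Ccs, catalase (Cat), the superoxide sources Nox4 and Cyba, and the repair enzyme Msra. They were chosen by gene symbol, and all 8 were present among the 18746 genes of the count table. The annotated genes were ENSRNOG00000002115 (Sod1, chromosome 11), ENSRNOG00000019048 (Sod2, chromosome 1), ENSRNOG00000003869 (Sod3, chromosome 14), ENSRNOG00000047816 (Ccs, chromosome 1), ENSRNOG00000008364 (Cat, chromosome 3), ENSRNOG00000013925 (Nox4, chromosome 1), ENSRNOG00000013014 (Cyba, chromosome 19) and ENSRNOG00000012440 (Msra, chromosome 15). Polyadenylated RNA was sequenced from rat PC12 cells, all grown in the same medium with serum. By the methods of the study, the cells received an siRNA against NQO1 (siNQO1, 3 samples) or a nontargeting control siRNA (siCtrl, 3 samples). The study delivered them with a lipid reagent. The labels of the samples speak instead of shRNA for the knockdown and of a plasmid for the control. Which reagent the sequenced samples received is not settled by the sources used here, and the grouping is the same under either. The study lists a single siRNA duplex for NQO1 and a single cell line. The study calls the samples of a group biological replicates and does not describe how their cultures were kept apart, and the p-values cover the spread among these libraries. The time of harvest for sequencing is not given in the sources used here.

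NQO1 reduces quinones without forming the radicals that pass an electron to oxygen and so yield superoxide. Superoxide dismutases turn superoxide into hydrogen peroxide and oxygen, and catalase splits hydrogen peroxide in peroxisomes. Sod1 uses copper and zinc and works in the cytosol, Sod2 uses manganese in the mitochondrial matrix, and Sod3 is a secreted copper and zinc enzyme. Ccs loads copper into Sod1. Nox4 is an NADPH oxidase whose partner Cyba (p22phox) is needed for its stability and activity. Msra reduces oxidized methionine in proteins, with electrons from thioredoxin.

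The libraries held 28873824 to 39467230 reads counted in genes. Nqo1 was at 80.8, 75.2 and 77.7 FPKM (fragments mapped to a gene, scaled to transcript length and library size) in siNQO1 replicates 1 to 3, against 368.6, 320.5 and 345.3 FPKM in siCtrl replicates 1 to 3, so that 22.6% of the control level remained. PC12 cells derive from a chromaffin tumor of the rat adrenal, but defining chromaffin markers were nearly absent. Of 12 such markers, 10 were found in the FPKM table and none exceeded 0.43 FPKM in any library. Th was at 0.04 to 0.07 FPKM in siNQO1 and at 0.06 to 0.09 FPKM in siCtrl. The Schwann cell markers S100b and Sox10 were high. S100b was at 169.0 to 175.1 FPKM in siNQO1 and 221.1 to 250.4 FPKM in siCtrl and fell by 0.45 on the log2 scale (edgeR adjusted p = 0.00329), and Sox10 was at 192.5 to 207.5 FPKM in siNQO1 and 198.5 to 232.8 FPKM in siCtrl (edgeR adjusted p = 0.395). The summed level of fibroblast markers was 46.0 to 49.3 FPKM in siNQO1 and 50.6 to 51.4 FPKM in siCtrl (4 of 6 markers found, Pdgfra over 1 FPKM, and Col1a1, Dcn and Fap at or below it). That of macrophage markers was 21.3 to 23.3 FPKM in siNQO1 and 23.6 to 24.4 FPKM in siCtrl (5 of 6 found, Cd68 and Cd14 over 1 FPKM), and the endothelial markers Cdh5 and Tek were at or below 1 FPKM. The part of these markers in the results was not tested. The cells are called PC12 here as labelled. The library siCtrl replicate 2 stood apart, since its log2 count profile across genes correlated no better with the other siCtrl libraries (highest r = 0.989) than with those of siNQO1 (lowest r = 0.989), and calls are given with and without it.

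Of the 8 genes, 6 passed the filter on low counts and were tested. Ccs was lower and Cat was higher after NQO1 knockdown, and Sod1, Sod2, Sod3 and Msra did not pass the test at an adjusted p under 0.05. Among all 12420 genes tested, 12.6% were called (5.27% as higher and 7.38% as lower), against 33.3% of the 6 members tested (1 higher and 1 lower). Neither called member passed a fold of 2, which only 0.435% of all genes tested (54 genes) did together with the adjusted p. The study, also with edgeR and these cutoffs, reports far more genes, a difference in count that was not examined here. In Ccs, Cat and Sod1 the CPM values of the groups did not overlap, a pattern seen in 34.2% of all genes tested. Both members were also called without siCtrl replicate 2, when 4200 of all genes were called in place of 1571. When any of the other 5 libraries was left out, Ccs was called and Cat was not, and the count over all genes was 722, 518 and 612 without siNQO1 replicate 1, 2 and 3 and 1008 and 749 without siCtrl replicate 1 and 3. Since RNA of whole cultures was sequenced, fewer cells expressing a gene and less RNA per cell cannot be told apart.

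The promoters of Ccs and Cat are shown because these members passed the test. That of Atox1 is shown because this copper chaperone had one of the profiles most like that of Ccs, and that of Sod1, the enzyme that Ccs supplies, for comparison. Each is the stretch of 250 bases before the start of the gene in RefSeq (build GRCr8), printed 5′ to 3′ on the strand of the gene. Of the 8 members, 6 matched an entry. Capitals mark any of 5 motifs, searched on both strands.
Ccs (chr1:211564261-211564510, minus strand): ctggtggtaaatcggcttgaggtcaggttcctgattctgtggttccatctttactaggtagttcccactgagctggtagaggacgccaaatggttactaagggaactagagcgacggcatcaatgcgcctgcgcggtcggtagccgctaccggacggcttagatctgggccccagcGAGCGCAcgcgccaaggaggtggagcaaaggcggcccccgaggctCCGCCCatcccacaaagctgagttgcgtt
Atox1 (chr10:40080562-40080811, minus strand): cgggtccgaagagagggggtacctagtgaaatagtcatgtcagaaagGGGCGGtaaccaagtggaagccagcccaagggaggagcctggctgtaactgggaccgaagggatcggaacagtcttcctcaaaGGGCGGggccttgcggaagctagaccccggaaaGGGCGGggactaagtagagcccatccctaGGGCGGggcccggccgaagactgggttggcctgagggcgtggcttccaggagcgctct
Cat (chr3:110329527-110329776, minus strand): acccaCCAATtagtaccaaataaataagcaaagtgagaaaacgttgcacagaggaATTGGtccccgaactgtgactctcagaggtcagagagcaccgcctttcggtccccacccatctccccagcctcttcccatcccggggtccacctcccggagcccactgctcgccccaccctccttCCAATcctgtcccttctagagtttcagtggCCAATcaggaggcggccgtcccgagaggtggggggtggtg
Sod1 (chr11:42942573-42942822, plus strand): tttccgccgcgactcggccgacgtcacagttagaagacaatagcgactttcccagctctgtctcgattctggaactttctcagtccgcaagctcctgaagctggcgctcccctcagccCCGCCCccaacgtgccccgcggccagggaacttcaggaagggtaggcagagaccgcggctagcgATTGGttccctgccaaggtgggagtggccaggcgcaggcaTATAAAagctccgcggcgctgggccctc
The motifs were the CCAAT box (CCAAT), the GC box (GGGCGG), the TATA box (TATAAA), the core of the antioxidant response element (TGACNNNGC) and the core of the metal response element (TGCACNC or TGCGCNC). In this printed set no capitals of different motifs overlapped. Of all 33469 promoters of this length, 34.0% held a CCAAT box, 30.5% a GC box, 12.9% a TATA box, 10.1% the antioxidant core and 20.6% the metal core.

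The promoter of Cat held 4 CCAAT boxes, of which 3 were on the strand of the gene, and none of the other motifs, and 0.565% of all promoters held 4 or more CCAAT boxes. The promoter of Ccs held 1 GC box and 1 metal response core, both on the opposite strand. That of Atox1 held 4 GC boxes, as many as or more than which were found in 3.67% of all promoters. That of Sod1 held 1 TATA box, 1 CCAAT box and 1 GC box. The antioxidant core matched in none of these 4 windows and in that of Sod2, once. The matches describe the letters of these windows and were not tested for factor binding.

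The members spanned a wide range of levels per length. In siNQO1 libraries the mean FPKM ran in the order Sod3, Sod1, Ccs, Sod2, Cat, Msra, Nox4 and Cyba, and the order was the same in siCtrl libraries. Sod3 averaged 607.9 ± 20.6 FPKM in siNQO1 and 597.9 ± 46.4 FPKM in siCtrl (SD, n = 3 each), and ranked at place 147 in siNQO1 and 151 in siCtrl by mean FPKM among all genes. Sod1 averaged 587.6 ± 13.9 FPKM in siNQO1 and 548.5 ± 6.16 FPKM in siCtrl (SD, n = 3 each), at place 154 in siNQO1 and 171 in siCtrl. Sod3 and Sod1 overlapped within each group and were the only neighbors in this order, among the 6 members tested, that did so. Sod3 took 246850 reads over the 6 libraries and Sod1 88271 reads, a difference that FPKM removes by dividing by transcript length. The mitochondrial enzyme Sod2 held 2.19% to 2.41% of the summed FPKM of the 3 dismutases in siNQO1 and 2.09% to 2.38% in siCtrl.

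**Figure D1:**
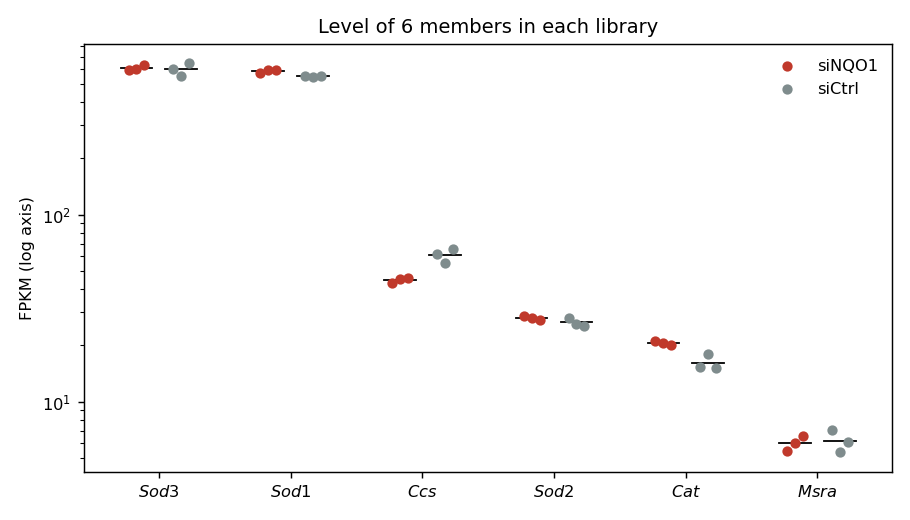
FPKM of the 6 members tested in each library on a log axis, with siNQO1 in red left of siCtrl in gray and lines at the group means. Sod3 and Sod1 lie between 541.9 and 644.2 FPKM and Msra between 5.37 and 7.05 FPKM, and the groups separate in Ccs, Cat and Sod1.

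Sod1, the cytosolic dismutase, was at 571.6, 595.0 and 596.3 FPKM in siNQO1 replicates 1 to 3, against 554.1, 541.9 and 549.4 FPKM in siCtrl replicates 1 to 3. Every siNQO1 library lay above every siCtrl library, by a small margin. The log2 fold change was 0.11 (with a standard error of 0.044, 95% interval 0.01 to 0.21), with an adjusted p of 0.135 from the quasi-likelihood test of edgeR over all genes. The exact permutation test on FPKM gave p = 0.10 two-sided, the smallest that 3 samples against 3 allow. The interval therefore lay within a rise of at most 1.16-fold. Of all genes tested, 61.5% had a larger change in size than Sod1.

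Sod2, the manganese enzyme of the matrix, was at 28.8, 28.0 and 27.5 FPKM in siNQO1 replicates 1 to 3, against 28.1, 26.2 and 25.5 FPKM in siCtrl replicates 1 to 3. The groups overlapped, since siCtrl replicate 1 lay above the siNQO1 replicates 2 and 3. Its log2 fold change was 0.09 (with a standard error of 0.058, 95% interval -0.04 to 0.23, edgeR adjusted p = 0.316, exact permutation p = 0.30).

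Sod3, the secreted dismutase, was at 594.3, 597.8 and 631.7 FPKM in siNQO1 replicates 1 to 3, against 598.1, 551.4 and 644.2 FPKM in siCtrl replicates 1 to 3. The siCtrl libraries spanned the whole range of the siNQO1 libraries. The log2 fold change was 0.04 (with a standard error of 0.069, 95% interval -0.12 to 0.19, edgeR adjusted p = 0.767, exact permutation p = 1). On the linear scale the interval ran from 0.920 to 1.14.

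Ccs, which hands copper to Sod1, was the member with the largest change in size among the 6 tested. Its levels were 43.1, 45.5 and 45.7 FPKM in siNQO1 replicates 1 to 3, against 62.0, 55.2 and 65.7 FPKM in siCtrl replicates 1 to 3. The groups did not overlap, and siCtrl replicate 2 was the lowest of its group. Ccs averaged 44.8 ± 1.43 FPKM in siNQO1 and 61.0 ± 5.31 FPKM in siCtrl (SD, n = 3 each), so that 73.5% of the control level remained. It fell by 0.43 on the log2 scale (with a standard error of 0.075, edgeR adjusted p = 0.00839, exact permutation p = 0.10). The 95% interval of the fold change ran from 0.659 to 0.834. In order of p, Ccs stood at place 447 among the genes tested. Its call held in all 19 alternatives, with a log2 fold change between -0.50 and -0.36, and the adjusted p was at most 0.0343.

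Cat moved the other way. It was at 21.0, 20.5 and 20.1 FPKM in siNQO1 replicates 1 to 3, against 15.3, 18.1 and 15.1 FPKM in siCtrl replicates 1 to 3. All siNQO1 libraries lay above all siCtrl libraries, of which siCtrl replicate 2 came nearest. Cat averaged 20.6 ± 0.480 FPKM in siNQO1 and 16.2 ± 1.67 FPKM in siCtrl (SD, n = 3 each), and its log2 fold change was 0.36 (with a standard error of 0.076, edgeR adjusted p = 0.0190, exact permutation p = 0.10). The 95% interval of the fold change ran from 1.14 to 1.45. The call of Cat was lost without siNQO1 replicate 1, 2 or 3 (edgeR adjusted p = 0.105, 0.114 and 0.0854) and without siCtrl replicate 1 or 3 (edgeR adjusted p = 0.0763 for each). Without siCtrl replicate 2 it held, with a log2 fold change of 0.44 (edgeR adjusted p = 8.17e-05).

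**Figure D2:**
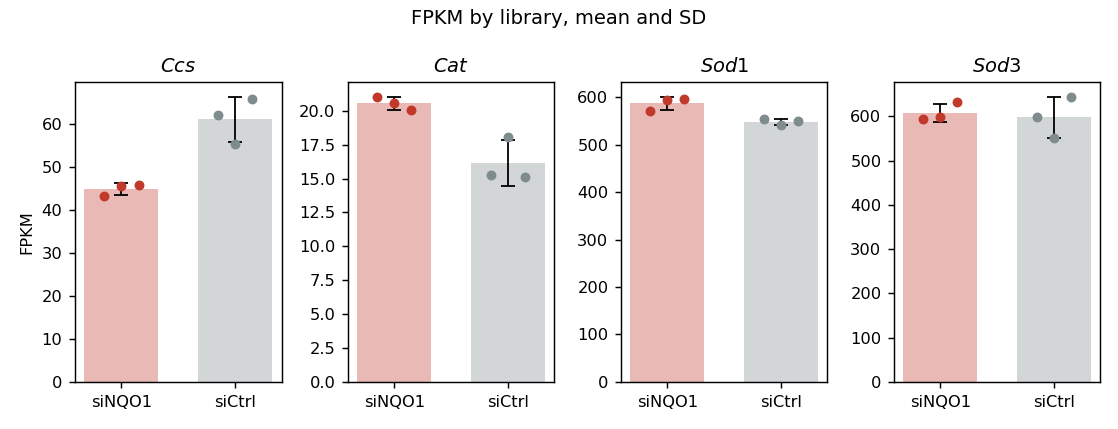
FPKM of Ccs, Cat, Sod1 and Sod3 by group, with siNQO1 left of siCtrl, bars at the mean, error bars of 1 SD over 3 libraries and points for the libraries. The siNQO1 bar of Ccs stands at 44.8 FPKM beside 61.0 FPKM in siCtrl, that of Cat at 20.6 FPKM beside 16.2 FPKM, and the Sod3 points overlap.

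Msra, the methionine sulfoxide reductase, was a gene of low level. It was at 5.43, 6.03 and 6.58 FPKM in siNQO1 replicates 1 to 3, against 7.05, 5.37 and 6.11 FPKM in siCtrl replicates 1 to 3. The groups overlapped, with both the highest and the lowest value in siCtrl. Msra rested on 146 to 209 reads per siNQO1 library and 152 to 173 reads per siCtrl library. The log2 fold change was -0.02 (with a standard error of 0.14, edgeR adjusted p = 0.936, exact permutation p = 0.80), and its 95% interval from -0.35 to 0.30 was the widest of the 6 members tested.

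**Figure D3:**
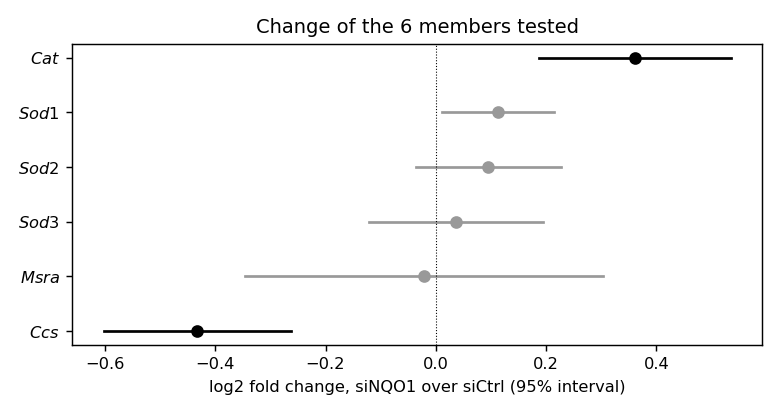
Log2 fold change of siNQO1 over siCtrl for the 6 members tested, with 95% intervals from the fit across all genes and black for an adjusted p under 0.05. Cat lies at 0.36 and Ccs at -0.43, and the intervals of Sod2, Sod3 and Msra cross 0.

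The superoxide sources among the members were hardly detected. Nox4 had 1, 6 and 7 reads in siNQO1 replicates 1 to 3, against 0, 10 and 5 reads in siCtrl replicates 1 to 3. The sums of 14 reads in siNQO1 and 15 reads in siCtrl put 48.3% of the Nox4 reads in siNQO1 (exact Clopper-Pearson 95% interval 29.4% to 67.5%, counting error only), where siNQO1 held 51.5% of all reads. Cyba, the partner that Nox4 needs, had 0 reads in each siNQO1 library, against 0, 1 and 0 reads in siCtrl replicates 1 to 3. No fold change is given for Cyba, since both groups were below 3 reads, and its ratio to Nox4 could not be formed. A difference in Cyba was not detectable at this depth, and for Nox4 the interval held the share of all reads. With no filter on low counts Nox4 had a log2 fold change of -0.15 (edgeR adjusted p = 0.948).

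Other NADPH oxidase genes were read from a list of 21 superoxide sources and partners, of which 12 passed the filter. The phagocyte oxidase Cybb had 16 reads and Nox1 had 3 reads over the 6 libraries. Duox1, a dual oxidase that releases hydrogen peroxide and does not depend on Cyba, had the highest FPKM among the NADPH oxidase catalytic subunits of this list. It was at 4.21, 4.06 and 4.74 FPKM in siNQO1 replicates 1 to 3, against 5.45, 4.40 and 4.77 FPKM in siCtrl replicates 1 to 3, with a log2 fold change of -0.15 (edgeR adjusted p = 0.338). Its maturation factor Duoxa1 averaged 5.89 ± 0.915 FPKM in siNQO1 and 5.97 ± 0.270 FPKM in siCtrl (SD, n = 3 each). The dual oxidase genes were thus above the level of Nox4 and Cyba in both groups and did not pass the test. None of the 12 genes tested was called by edgeR, against 12.6% of all genes tested. An unadjusted p under 0.05 was reached by 2 of the 12, and by 3596 of all 12420 genes tested. DESeq2 and limma voom called 0 of the 12 as well. Their median log2 fold change was -0.08, against 0.01 over all genes tested. Of the fits with 1 library left out, only that without siCtrl replicate 2 called any of the 12. These were Rac1, a switch protein of the oxidases, and Aox1, an aldehyde oxidase, in a fit that called 4200 of all 12615 genes tested.

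The level of Sod1 relative to its chaperone was set side by side within each library. The Sod1 to Ccs ratio of FPKM was 13.2, 13.1 and 13.04 in siNQO1 replicates 1 to 3, against 8.94, 9.81 and 8.36 in siCtrl replicates 1 to 3. The siNQO1 ratios lay close together and above each siCtrl ratio. The ratio was 1.46-fold higher in siNQO1 (exact two-sided permutation p = 0.10, the smallest possible here, adjusted p = 0.15 over the 3 ratios tested). It restates the log2 fold changes of Ccs (-0.43) and Sod1 (0.11) given above and is not a separate result. The fold of the ratio was between 1.40 and 1.52 with any library left out.

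Cat and Sod1 encode successive enzymes, since the product of the dismutase is the substrate of catalase. The Cat to Sod1 ratio was 0.0368, 0.0345 and 0.0337 in siNQO1 replicates 1 to 3, against 0.0275, 0.0334 and 0.0275 in siCtrl replicates 1 to 3, so that siCtrl replicate 2 nearly reached the siNQO1 libraries. It was 1.19-fold higher in siNQO1 (exact two-sided permutation p = 0.10, adjusted p = 0.15), which restates the changes of Cat and Sod1 given above. The Sod2 to Sod1 ratio, which sets the matrix enzyme against the cytosolic one, averaged 0.0479 ± 0.00227 in siNQO1 and 0.0485 ± 0.00219 in siCtrl (SD, n = 3 each), with overlapping libraries (exact permutation p = 0.70, adjusted p = 0.70).

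**Figure D4:**
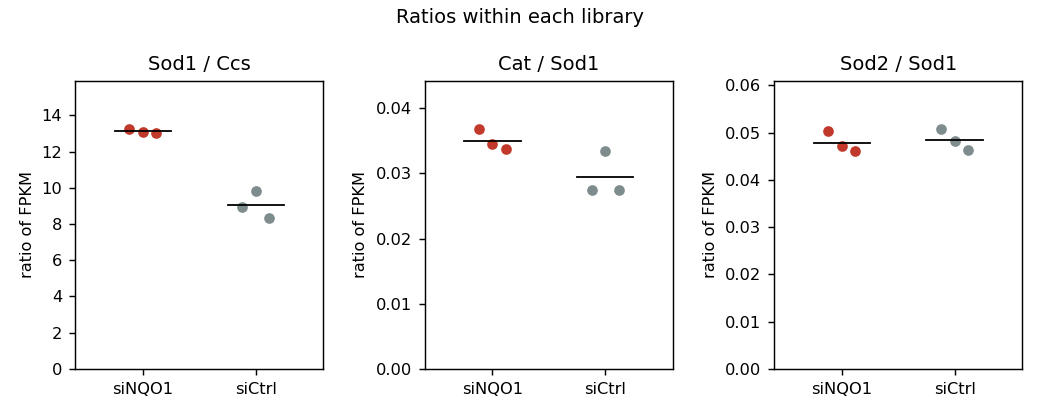
Ratios of FPKM within each library for Sod1 to Ccs, Cat to Sod1 and Sod2 to Sod1, with siNQO1 in red left of siCtrl in gray and lines at the means of 3 libraries. The siNQO1 points of Sod1 to Ccs lie at 13.04 to 13.2, all above the siCtrl points at 8.36 to 9.81.

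The genes with profiles most like those of the called members were found among 11096 others of average log2 CPM over 0. Likeness was the root mean square difference over the 6 libraries between log2 CPM values, each centered on the siCtrl mean of its gene. Nearest to Ccs were Cspg4, a surface proteoglycan, the interferon gamma receptor chain Ifngr1, and Atox1, with differences of 0.030, 0.035 and 0.035. Nearest to Cat were RGD1308601, Yaf2 and LOC679149, with differences of 0.026, 0.035 and 0.035. These genes were picked for likeness, so that their log2 fold changes, -0.44, -0.42 and -0.47 for the first set and 0.39, 0.37 and 0.42 for the second, are a description.

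Among genes of copper handling, those other than Ccs moved in both directions. Of 14 tested, Slc31a2 and Cp rose, Atox1 fell and 11 did not pass. The called share was 21.4%, against 12.6% of all genes tested, and 5 of the 14 had an unadjusted p under 0.05. Atox1, a cytosolic chaperone that passes copper to the pumps Atp7a and Atp7b, was at 92.2, 95.7 and 101.9 FPKM in siNQO1 replicates 1 to 3, against 137.2, 121.9 and 145.0 FPKM in siCtrl replicates 1 to 3. It fell by 0.47 on the log2 scale (with a standard error of 0.076, edgeR adjusted p = 0.00698). For the copper chaperones Ccs and Atox1, the highest siNQO1 library thus lay below the lowest siCtrl library. Groups that did not overlap in CPM were seen in 34.2% of all genes tested, and Atox1 was also picked for likeness to Ccs. Cox17, another copper chaperone of the list, had a log2 fold change in the other direction of 0.29 (edgeR adjusted p = 0.0652).

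Slc31a2, a relative of the copper importer Slc31a1, averaged 23.6 ± 0.827 FPKM in siNQO1 and 17.6 ± 1.10 FPKM in siCtrl (SD, n = 3 each) and rose by 0.43 on the log2 scale (edgeR adjusted p = 0.00504). The importer Slc31a1 itself had a log2 fold change of 0.13 (edgeR adjusted p = 0.308) and the pump Atp7a one of 0.18 (edgeR adjusted p = 0.682). The copper oxidase ceruloplasmin, Cp, averaged 2.99 ± 0.0862 FPKM in siNQO1 and 2.11 ± 0.279 FPKM in siCtrl (SD, n = 3 each), with a log2 fold change of 0.51 (edgeR adjusted p = 0.0215). The median log2 fold change of the 14 genes was 0.12. Atox1 and Slc31a2 kept their calls whichever library was left out, whereas, with 1 library left out, Cp kept its call only without siCtrl replicate 2 (highest edgeR adjusted p = 0.112 among the other 5). The list had 6 calls without siCtrl replicate 2, when 4200 of all 12615 genes tested were called. It had 2 calls when any other library was left out.

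In the list named for the supply of Sod2, 1 of 7 genes tested rose and none fell. The called share was 14.3%, against 12.6% of all genes tested, and 3 of the 7 had an unadjusted p under 0.05. The gene that rose was Slc25a39, a mitochondrial carrier whose yeast relative Mtm1 is needed for manganese to reach the matrix dismutase in yeast. Whether manganese supply changed in these cells was not tested. It was at 232.7, 231.9 and 243.7 FPKM in siNQO1 replicates 1 to 3, against 188.9, 174.3 and 197.2 FPKM in siCtrl replicates 1 to 3. It rose by 0.35 on the log2 scale (with a standard error of 0.060, edgeR adjusted p = 0.00802) and kept its call whichever library was left out. The importer Slc11a2 had a log2 fold change of 0.23 (edgeR adjusted p = 0.0708). The manganese importers Slc39a14 and Slc39a8, the deacetylase Sirt3 and the presequence peptidase subunits Pmpca and Pmpcb had log2 fold changes of -0.09, -0.36, -0.05, -0.15 and -0.01 and did not pass. The median of the 7 genes was -0.05 on the log2 scale. Leaving out siCtrl replicate 2 added Pmpca and Slc11a2 to the calls, and leaving out siCtrl replicate 1 added Slc11a2.

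Beside catalase, peroxiredoxins and glutathione peroxidases remove hydrogen peroxide. Of 10 tested, Prdx6 rose, Prdx3 and Gpx7 fell, and 7 did not pass, with a median log2 fold change of -0.04. The called share was 30%, against 12.6% of all genes tested. An unadjusted p under 0.05 was reached by 7 of the 10, and by 3596 of all 12420 genes tested. Prdx3, the mitochondrial peroxiredoxin, averaged 47.3 ± 0.527 FPKM in siNQO1 and 59.2 ± 1.29 FPKM in siCtrl (SD, n = 3 each), a fall by 0.31 on the log2 scale (edgeR adjusted p = 0.00458). Gpx7, a peroxidase of the endoplasmic reticulum, rested on at most 89 reads in a library, with a log2 fold change of -0.81 (edgeR adjusted p = 0.0442). Prdx6, a peroxiredoxin that also repairs oxidized phospholipids, had one of 0.17 (edgeR adjusted p = 0.0447). Of the fits with 1 library left out, both kept their calls only in that without siCtrl replicate 2, with highest adjusted p of 0.144 and 0.182 from edgeR when another library was left out. With the replicate number as a block, Prdx3 was the only call of this list. The list had 7 calls without siCtrl replicate 2, when 4200 of all 12615 genes tested were called. It had 1 call when any other library was left out. DESeq2 and limma voom called Prdx3 and Gpx8 of this list, and neither Gpx7 nor Prdx6. Over the 13 alternatives with all libraries, Gpx7 was called in 9 and Prdx6 in 4.

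No gene of the peroxisomal oxidases and catalase import passed the test of edgeR, DESeq2 or limma voom (10 tested, of which 1 had an unadjusted p under 0.05, median log2 fold change 0.02). Paox, a polyamine oxidase, was called without siCtrl replicate 2. The import factors Pex13 and Pex14, which dock the receptor that carries catalase into peroxisomes, had log2 fold changes of 0.01 and 0.04 (edgeR adjusted p = 0.909 and 0.787). The gene of that receptor, Pex5, had 3 reads over the 6 libraries and was not among the 10 tested. At the 12.6% called among all genes tested, few calls are to be looked for among 10 genes. The change of Cat was not tested against that of these genes.

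Beside Msra, the list of methionine sulfoxide reductases and their thioredoxin supply held 11 genes tested, of which Txnip and Mical2 rose and Txn2 and Txnrd2 fell. The called share was 36.4%, against 12.6% of all genes tested, and 4 of the 11 had an unadjusted p under 0.05. The other reductases Msrb1 and Msrb3 had log2 fold changes of 0.06 and 0.03 and did not pass (edgeR adjusted p = 0.630 and 0.880). Txnip, a protein that binds thioredoxin, and Mical2, an oxidase of methionines in actin, rose by 0.42 and 0.48 on the log2 scale (edgeR adjusted p = 0.0119 and 0.0212). Txn2 and its reductase Txnrd2, both mitochondrial, fell by 1.02 and 0.27 on the log2 scale (edgeR adjusted p = 0.000238 and 0.0456). Txn2 was the only gene of the 8 lists past both an adjusted p under 0.05 and a fold of 2, and its call held whichever library was left out. Txnip lost its call without siNQO1 replicate 2 or 3, Mical2 on leaving out any single siNQO1 library or siCtrl replicate 3, and Txnrd2 on leaving out any library but siCtrl replicate 2 (highest edgeR adjusted p = 0.0588, 0.0962 and 0.139). Txnrd2 was also not called in 6 of the 13 other alternatives, the replicate block among them (edgeR adjusted p = 0.0671). The count of 4 went down to 1 without siNQO1 replicate 2 or 3, and to 2 without siNQO1 replicate 1 or siCtrl replicate 3.

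Of 18 transcription regulators of these genes that were tested, none was called by the quasi-likelihood test of edgeR, against 12.6% of all genes tested. An unadjusted p under 0.05 was reached by 2 of the 18, and by 3596 of all 12420 genes tested. DESeq2 and limma voom called 0 of the 18. The likelihood ratio and exact tests of edgeR called 1 of them, Ppargc1b, a coactivator of nuclear receptors. Nfe2l2, which encodes NRF2, averaged 62.6 FPKM in siNQO1 and 59.6 FPKM in siCtrl, with a log2 fold change of 0.08 (edgeR adjusted p = 0.629). The forkhead factors Foxo1, Foxo3 and Foxo4, known regulators of Sod2 and Cat, had log2 fold changes of -0.19, 0.18 and 0.13 and did not pass. When siCtrl replicate 2 was left out, 7 regulators were called, among them Nfe2l2, Nfkb1 and Sirt1. In that fit 4200 of all 12615 genes tested were called, so the gain in calls was not particular to regulators. Among 11 genes of other sites that make superoxide or peroxide, Etfdh rose by 0.21 and the lysyl oxidase Loxl1 fell by 0.34 on the log2 scale (edgeR adjusted p = 0.0410 and 0.0120). The called share was 18.2%, against 12.6% of all genes tested, and 5 of the 11 had an unadjusted p under 0.05. Etfdh, a flavoprotein that feeds electrons to ubiquinone, kept its call with 1 library left out only without siCtrl replicate 2, and was called in 4 of the 13 alternatives with all libraries (edgeR adjusted p = 0.0719 with the replicate block). Loxl1 lost its call without siNQO1 replicate 2 or siCtrl replicate 3. This list had 5 calls in the same fit without siCtrl replicate 2, and 0 or 1 when any other library was left out.

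Over the 8 lists, 13.98% of the 93 genes tested were called, 7 as higher and 6 as lower, close to the 12.6% of all genes tested. Their median log2 fold change was 0.03. The count of 13 became 35 without siCtrl replicate 2, when 4200 of all 12615 genes tested were called. The list count was 7, 5 and 6 without siNQO1 replicate 1, 2 and 3 and 9 and 6 without siCtrl replicate 1 and 3.

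**Figure D5:**
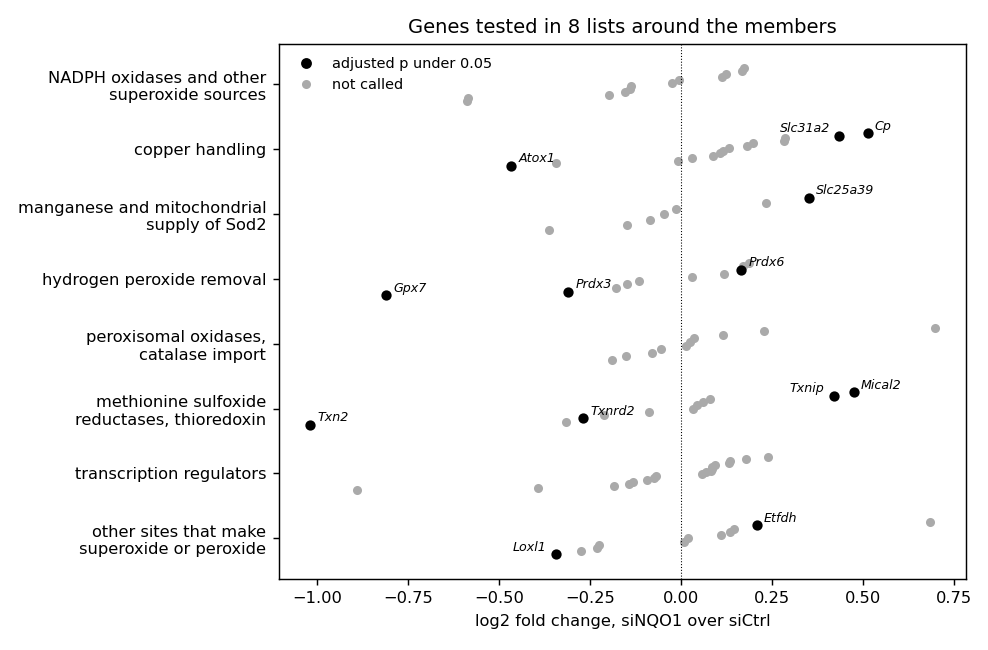
Log2 fold change of siNQO1 over siCtrl for the 93 genes tested in 8 lists, with 1 point per gene and black for an adjusted p under 0.05. Atox1 lies at -0.47 and Slc31a2 at 0.43 in copper handling, and Txn2 lies farthest left at -1.02.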

How the data were processed

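Before deposit, the authors trimmed the reads (FASTX-Toolkit), mapped them to the rat RGSC6 genome (TopHat2) and kept unique alignments. GEO's processing notes from the submitters also list bcl2fastq and edgeR. Which counter was used, and whether it read the strand, is not given in the sources used here; overlapping genes may therefore share reads. Gene counts were deposited by the authors as whole numbers without normalization, and FPKM by the authors were scaled for transcript length and mapped reads.

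The counts were tested with edgeR 4.0.16 in R 4.3.3, after filterByExpr and TMM scaling, by glmQLFit and glmQLFTest with the group alone in the design. Benjamini-Hochberg adjustment ran over 12420 genes. A call is an adjusted p under 0.05, and intervals are 95% from this fit. FPKM values and their ratios were compared by exact two-sided permutation tests.

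All 8 members were named. From each list up to 3 called genes of each direction and, for called members, the 3 genes of most alike profile were named, and other list genes were picked after their values were seen. The members and lists were chosen with earlier results of these data known. Alternatives were 3 other scalings, 2 other filters, the likelihood ratio and exact tests of edgeR, DESeq2 1.42.0, limma 3.58.1 (voom, and log2 FPKM with pseudocounts of 1 and 0.1 for genes at 0.1 FPKM or more in 3 libraries, or with no filter), a block for the replicate number, and leaving out 1 library at a time. List results were put through the alternatives after the data had been seen. The ratio of Cyba to Nox4 could not be formed, and splicing was not analysed here. Some genes of the lists are not reported here.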

Additional observations from a re-analysis of the deposited data

How the results depend on the processing

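The call of Ccs held in all 19 alternatives. With the replicate number as a block, its log2 fold change was -0.43 (edgeR adjusted p = 0.0155) and that of Cat was 0.37 (edgeR adjusted p = 0.0262), so the block changed no call of a member, and 1350 genes were called in all. Deviations of same-numbered libraries correlated at -0.04, 0.16 and 0.06, and the libraries were treated as unpaired. Cat did not pass with limma on log2(FPKM + 1) and no filter (log2 fold change 0.33, adjusted p = 0.0586 from limma), where 990 genes and 1 member were called. With 1 library left out its log2 fold change ran from 0.30 to 0.44, the number of members called from 1 to 2 and that of all genes called, 1571 in all libraries, from 518 to 4200. Counts called in the lists with 1 library left out ran from 0 to 2 for NADPH oxidases and other sources, 2 to 6 for copper, 1 to 3 for the supply of Sod2, 1 to 7 for peroxide removal, 0 to 1 for peroxisomal genes, 1 to 4 for methionine sulfoxide reductases and thioredoxin, 0 to 7 for regulators and 0 to 5 for other sites. In each of the 8 lists the highest of these counts was the one without siCtrl replicate 2. Among the other alternatives, DESeq2 called 5 copper genes (Cox17 and Mt2A beside the 3), and limma on log2(FPKM + 1) with no filter called 1 gene of peroxide removal and 2 of the methionine sulfoxide list, and 7 in all lists together. The replicate block also left 1 gene of peroxide removal. Rac1 was the 1 oxidase partner called with the filter of 1 CPM in 3 libraries. Ppargc1b was the 1 regulator called with library size alone, with no filter, with the 1 CPM filter and in the likelihood ratio and exact tests of edgeR. Of the other sites, 4 were called with the 1 CPM filter, and 1 with no filter, in the likelihood ratio and exact tests, in all 3 limma fits on FPKM and with the replicate block.

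The fold of the Sod1 to Ccs ratio ran from 1.40 to 1.52, that of Cat to Sod1 from 1.15 to 1.27 and that of Sod2 to Sod1 from 0.962 to 1.01 with 1 library left out. Sod1, Sod2, Sod3 and Msra were called in none of their 19 alternatives. Sod3 and Msra changed sign among them without a call. Depth limits Nox4 and Cyba, with 29 reads and 1 read in all.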
